A study of Mus musculus with 2 samples.

Results

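Growth hormone and STAT5 signalling was followed through 10 genes: the receptor Ghr, the transcription factors Stat5a and Stat5b, the feedback inhibitors Cish, Socs1, Socs2 and Socs3, the repressor Bcl6, and the secreted proteins Igf1 and Igfals. They were chosen by their log2 ratios on these arrays as known from earlier results and are taken here by symbol. Through their transcript accession 17 probes on 26 spots of each array matched them, out of probes for 20886 genes in all. The series compares male wild-type mice (C57BL/6J WT) after 4 weeks on a normal diet (ND) or on a high-fat diet (HFD), in liver and in adipose tissue. The labels name no other treatment, and the age, the fat depot and the hour of sampling are not given in the sources used here. The labels count 10 livers and 10 fat samples combined by diet and do not settle whether that is per pool or in all. Each of the 4 groups is 1 pool. A single 2-colour Agilent array served each tissue, with ND in green (Cy3) and HFD in red (Cy5). Neither replicate arrays nor swapped dyes were used. The values therefore carry no p-value and no spread between mice, and diet and dye cannot be told apart for a single probe.

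Growth hormone binds its receptor on hepatocytes and adipocytes, and the receptor-bound kinase JAK2 then phosphorylates STAT5A and STAT5B. These enter the nucleus and bind paired TTC and GAA motifs near their target genes. In liver, STAT5 is known to induce Igf1, Igfals, Cish and Socs2 and to repress Bcl6. CIS and the SOCS proteins bind the activated receptors or kinases and end the signal, while BCL6 is a repressor that can occupy STAT5 sites.

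On the liver array 2 inhibitors were higher in the high-fat pool by at least 2-fold, Cish (4.36-fold) and Socs2 (2.48-fold), and Bcl6 was 3.95-fold lower. With all local backgrounds as deposited, in place of a median for those marked as outliers, neither Cish (log2 ratio 0.84) nor Socs2 (0.40) reached 2-fold, while Bcl6 did (-1.67). No liver spot of Cish, Socs2 or Bcl6 had its own background replaced, so the backgrounds that differ between these settings are those of other spots. In adipose tissue none of the 10 genes reached 2-fold, and the nearest was Igfals (1.92-fold higher). The genes were chosen by such ratios, so the counts are a description. Among all 13642 genes measured in liver, 0.491% were higher by that size and 0.579% were lower. Among 14315 genes measured in adipose tissue, 4.23% were higher and 5.13% lower. The median log2 ratio of HFD over ND was 0.19 for the 10 genes in liver, against 0.01 for all genes, and -0.09 in adipose tissue, against -0.01. The scanner software gives an error for each log2 ratio, which covers the pixels and the signal of the spot and no biological spread. In liver 4 of the 10 ratios were over 2 times that error, where 7.83% of all genes were. In adipose tissue 4 were too, where 27.4% of all genes were.

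**Figure D1:**
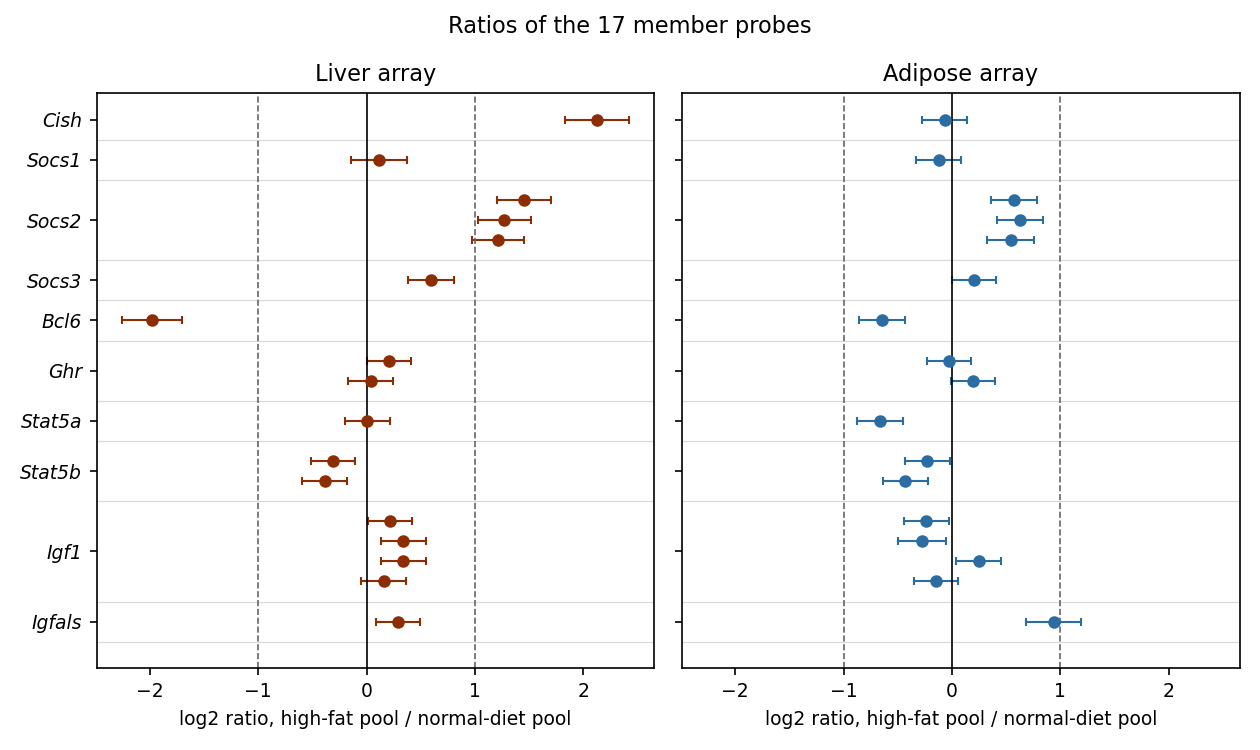
Log2 ratio of HFD over ND for each of the 17 probes on the liver array (left) and the adipose array (right). Bars are the error from the scanner software, dashed lines mark 2-fold. In liver Cish and the 3 Socs2 probes lie right of the upper line and Bcl6 lies left of the lower one, while every adipose probe lies between the lines.

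Precision is limited by the number of arrays. The median error that the software gave a log2 ratio was 0.21 on either array. All 17 probes were well above background in both channels of both arrays and none of their spots was marked as an outlier. In the normal-diet pools 26 of 29 hepatocyte markers had the higher level in liver and 13 of 13 adipocyte markers in adipose tissue. Markers of other tissues differed between the pools. On the liver array 14 of 21 skeletal muscle markers were at least 2-fold lower in the high-fat pool (median log2 ratio -1.14), with summed levels of 72554 (ND) and 27894 (HFD). On the adipose array 19 of 29 hepatocyte markers were lower and 3 higher, Apoa1 (2.08), Hnf4a (1.90) and Apob (1.62), with a median of -3.03 and summed levels of 664409 and 270640. On the same array 27 of 28 markers of small intestine epithelium were higher (median 3.54, summed levels 67240 and 954964). There 8 of 9 markers of the male reproductive tract were lower (median -2.98, summed levels 87439 and 8739), as were 14 of 19 of exocrine pancreas (median -1.91, 1 higher) and 6 of 16 of skeletal muscle (median -0.56). Levels are on the log2 scale of a channel after the arrays were given the same distribution of brightness, and the sums are on the linear scale. In these bulk pools fewer cells of a type and less RNA per cell cannot be told apart.

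Cish encodes CIS, which binds phosphorylated cytokine receptors and blocks their STAT5 docking sites. Its 1 probe gave a spot signal of 280 in the normal-diet and 2169 in the high-fat liver pool, over local backgrounds of 35 and 51. In adipose tissue the signals were 403 and 1890.5, over 27 and 54. After normalization the log2 level was 8.71 (ND) and 10.83 (HFD) in liver and 9.66 (ND) and 9.60 (HFD) in adipose tissue. The high-fat liver pool was thus the highest of the 4 and the normal-diet liver pool the lowest, with the adipose pools between them. The liver log2 ratio was 2.13 with a software error of 0.30, the 6th highest of 13642 genes, and 0.84 with local backgrounds as deposited. The adipose ratio was -0.07 with an error of 0.20. The difference between the tissues was 2.19, and 2.06% of the 12689 genes measured on both arrays differed by more in either direction. Skeletal muscle markers were lower in the same high-fat liver pool, and their part in the Cish ratio was not tested.

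Socs2 encodes the inhibitor that limits growth hormone signalling to body growth. It has 3 probes, and 1 of them is printed on 10 spots, which gives the technical spread of a ratio within an array. In liver that probe had signals of 306.35 (ND) and 1498.8 (HFD) on average, and its log2 ratio was 1.45 ± 0.04 (SD over 10 spots), from 1.36 to 1.51. The other probes gave 1.27 and 1.21. The mean of the 3 probes was 1.31 ± 0.13 (SD over probes), rank 26 from the highest, and 0.40 with local backgrounds as deposited. In liver the probes thus differed from each other by more than the spots of this probe did. In adipose tissue the 10 spots gave 0.57 ± 0.06, from 0.47 to 0.65, and the other probes 0.63 and 0.54. Over the 3 probes the mean there was 0.58 ± 0.04 (SD over probes), a spread below that of the 10 spots. The local red background of 1 of the 12 adipose spots was marked as an outlier and replaced by the array's median. With local backgrounds as deposited the mean over the probes was 0.40 in liver and 0.58 in adipose tissue, so the order of the tissues depended on the processing. The 10 spots of an array share the same pools and 1 hybridization, so their spread says nothing of the spread between mice or between tissues. Over all 277 liver probes with at least 5 spots the median SD was 0.05, close to that of the Socs2 spots.

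**Figure D2:**
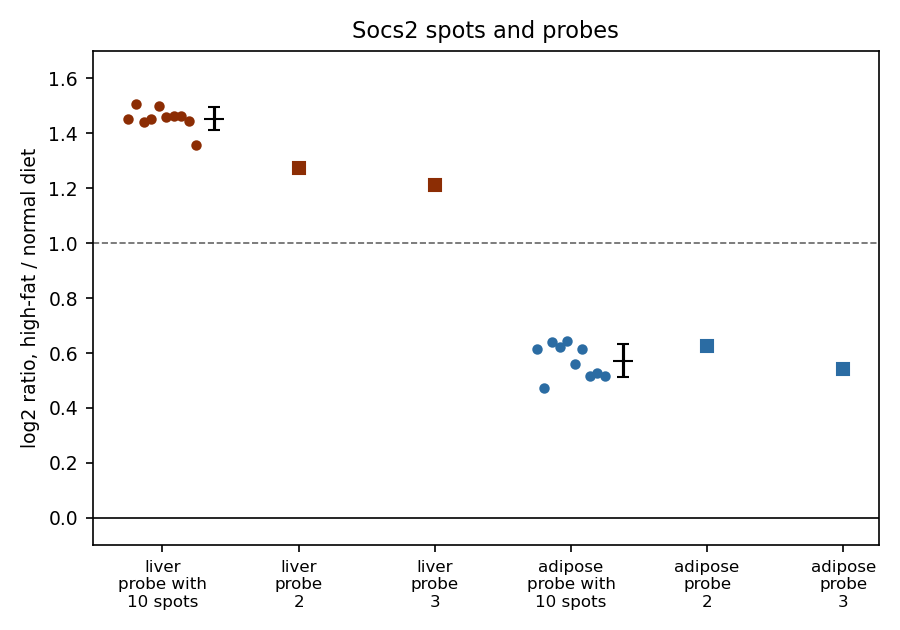
Log2 ratio of the high-fat over the normal-diet pool at each of the 10 spots of 1 Socs2 probe (circles, with the mean and SD as a bar) and for the 2 probes with 1 spot each (squares), in liver and adipose tissue. All liver values lie above the dashed line at 2-fold and all adipose values between 0 and that line.

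Socs3 and Socs1 encode inhibitors that bind JAK kinases and act mainly on interleukin-6 type and interferon signals. The Socs3 log2 level was 9.68 (ND) and 10.28 (HFD) in liver and 9.76 and 9.96 in adipose tissue. Its log2 ratio was 0.60 with an error of 0.21 in liver, below the size of 2-fold, and 2.33% of liver genes had a higher one. In adipose tissue it was 0.20 with an error of the same size. Socs1 was the dimmest of the liver probes in this set, with signals of 88 (ND) and 132 (HFD) over backgrounds of 29 and 53. Under alternative processing its liver log2 ratio ran from 0.01 to 0.25, below its error throughout. Its log2 ratio was 0.12 with an error of 0.26 in liver and -0.12 with an error of 0.21 in adipose tissue. As processed here, the 4 inhibitors did not share 1 size of ratio in liver. Cish and Socs2 passed 2-fold, Socs3 had a smaller ratio over 2 times its error, and Socs1 lay within its error of 0. With local backgrounds as deposited none passed 2-fold, with Cish at 0.84, Socs2 at 0.40, Socs3 at 0.24 and Socs1 at 0.01.

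Bcl6 encodes a zinc finger repressor that recognises motifs like those of STAT5. Its liver signals were 5099 (ND) and 2372 (HFD), the reverse of the brightness of the dyes, since the median spot was at 93 in green and 127 in red. The adipose signals were 2850.5 and 10083.5, on an array whose median spot was at 97 in green and 274 in red. The log2 level was 12.74 (ND) and 10.76 (HFD) in liver and 12.79 (ND) and 12.14 (HFD) in adipose tissue. The normal-diet levels of the tissues lay within 0.05 of each other, and the high-fat liver pool was lower than all the others. The liver log2 ratio was -1.98 with an error of 0.28, the 7th lowest of 13642 genes. The adipose ratio had the same direction at -0.65 with an error of 0.21, but was 0.41 with median centring in place of loess. Relative to the median of all adipose genes under that setting it was -0.28. Of all adipose genes 9.10% had a lower ratio. The liver ratio was lower than the adipose one by 1.33, and 5.09% of genes measured on both arrays differed by more in either direction. Skeletal muscle markers were lower in the same high-fat liver pool, as Bcl6 was (14 of 21 by at least 2-fold, median -1.14), and hepatocyte markers in the high-fat adipose pool. Their part in the Bcl6 ratios was not tested.

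Reference promoter windows, the 250 bases before a transcript start in RefSeq (GRCm38.p6), were found for 9 of the 10 genes, Socs2 being the one without an entry. They are shown for Cish and Bcl6, the genes with the largest liver ratios in each direction. Capitals mark the STAT-type motif TTCNNNGAA, which reads the same on both strands. The windows are Cish at chr9:107296409-107296658 (+ strand), Bcl6 upstream at chr16:23988853-23989102 (- strand) and Bcl6 inner at chr16:23981284-23981533 (- strand), the last lying inside the gene before a second annotated start.
Cish: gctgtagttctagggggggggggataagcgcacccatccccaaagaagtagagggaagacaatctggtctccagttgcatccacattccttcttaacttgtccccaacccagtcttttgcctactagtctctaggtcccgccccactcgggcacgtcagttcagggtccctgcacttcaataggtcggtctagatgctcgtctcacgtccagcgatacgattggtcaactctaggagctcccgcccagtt
Bcl6 upstream: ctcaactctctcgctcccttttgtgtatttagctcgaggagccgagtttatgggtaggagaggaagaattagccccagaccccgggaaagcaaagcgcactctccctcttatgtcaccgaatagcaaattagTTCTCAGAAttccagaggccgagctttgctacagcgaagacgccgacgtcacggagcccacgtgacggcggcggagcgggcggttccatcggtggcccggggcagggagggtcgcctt
Bcl6 inner: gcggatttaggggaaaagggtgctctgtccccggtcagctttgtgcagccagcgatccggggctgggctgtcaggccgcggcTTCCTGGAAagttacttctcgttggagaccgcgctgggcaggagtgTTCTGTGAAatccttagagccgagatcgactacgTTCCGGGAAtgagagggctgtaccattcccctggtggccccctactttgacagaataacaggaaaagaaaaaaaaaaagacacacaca
The Cish window held no match, which says only that these letters are not in it. The upstream Bcl6 window held 1 match, TTCTCAGAA, and the inner window 3, TTCCTGGAA, TTCTGTGAA and TTCCGGGAA, at 168, 122 and 88 bases before the start. Of 32851 windows of the same length, 7.02% held at least 1 match and 9 held 3 or more. Socs3 had 1 match (TTCTTAGAA, 154 bases before the start), and Igfals had 1 in each of 2 of its 3 windows (TTCTCAGAA at 236 bases and TTCCTAGAA at 58 bases). The motif with 1 more base between its arms, TTCNNNNGAA, was in none of the windows of the 9 genes, against 5.85% of all windows. A match describes letters and was not tested as a binding site.

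Ghr encodes the growth hormone receptor. Its 2 probes gave liver log2 ratios of 0.21 and 0.04 and adipose ratios of -0.03 and 0.20, each with an error of 0.20. The mean log2 level was 13.20 (ND) and 13.33 (HFD) in liver and 14.25 and 14.33 in adipose tissue. For both probes the adipose pools were above the liver pools, and the pools of 1 tissue lay within 0.21 of each other.

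The STAT5 genes lie next to each other on the same chromosome. Stat5a had a liver log2 ratio of 0.01 with an error of 0.20, between levels of 9.33 (ND) and 9.34 (HFD). In adipose tissue its level was 10.77 (ND) and 10.11 (HFD), a log2 ratio of -0.66 with an error of 0.22. With median centring it was 0.28, or -0.41 relative to the median of all genes. Stat5b, the main form in liver, had probe ratios of -0.31 and -0.39 in liver and -0.23 and -0.43 in adipose tissue, each with an error of 0.21. Its mean log2 ratio was -0.35 in liver, where 5.25% of genes were lower, and -0.33 in adipose tissue, where 19.9% were lower. Its 4 probe ratios were below 0 and none reached 2-fold, but with median centring its mean was above 0 in liver (0.10) and in adipose tissue (0.66). The median of all genes was then 0.32 in liver and 0.69 in adipose tissue, and relative to it Stat5b was at -0.22 and -0.03.

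Igf1 encodes insulin-like growth factor 1, whose circulating form comes mostly from liver. Its 4 liver probes gave log2 ratios of 0.22, 0.34, 0.34 and 0.16, with errors from 0.20 to 0.21, and a mean of 0.26 ± 0.09 (SD over probes). In adipose tissue the probes gave -0.23, -0.28, 0.25 and -0.14, which differ in sign, with a mean of -0.10 ± 0.24. The probe at -0.28 was dim there (121 in ND over a background of 34) and its green background was replaced. For every Igf1 probe both liver pools were above both adipose pools, and the mean liver level was 3.43-fold (ND) and 4.42-fold (HFD) the adipose level on the scale of equal brightness. Igfals encodes the acid-labile subunit that holds IGF1 in the circulation and is made by hepatocytes. Its liver log2 level was 10.13 (ND) and 10.42 (HFD), a ratio of 0.29 with an error of 0.21. The 30 hepatocyte markers had a median log2 ratio of 0.28 on the liver array.

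In adipose tissue Igfals was near the lower end of the signal, at 102 (ND) and 774 (HFD) over backgrounds of 27 and 54, with log2 levels of 7.45 and 8.39. The lowest normal-diet level of a probe well above background on that array was 6.26. Its log2 ratio was 0.94 with an error of 0.25, just inside 2-fold, and 4.60% of adipose genes had a higher one. With the scanner software's log ratio it was 1.52, and with a smaller normexp offset it also passed 2-fold. Hepatocyte markers, whose tissue makes Igfals, were lower in the same high-fat adipose pool and intestinal markers higher. Their part in the Igfals ratio was not tested.

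**Figure D3:**
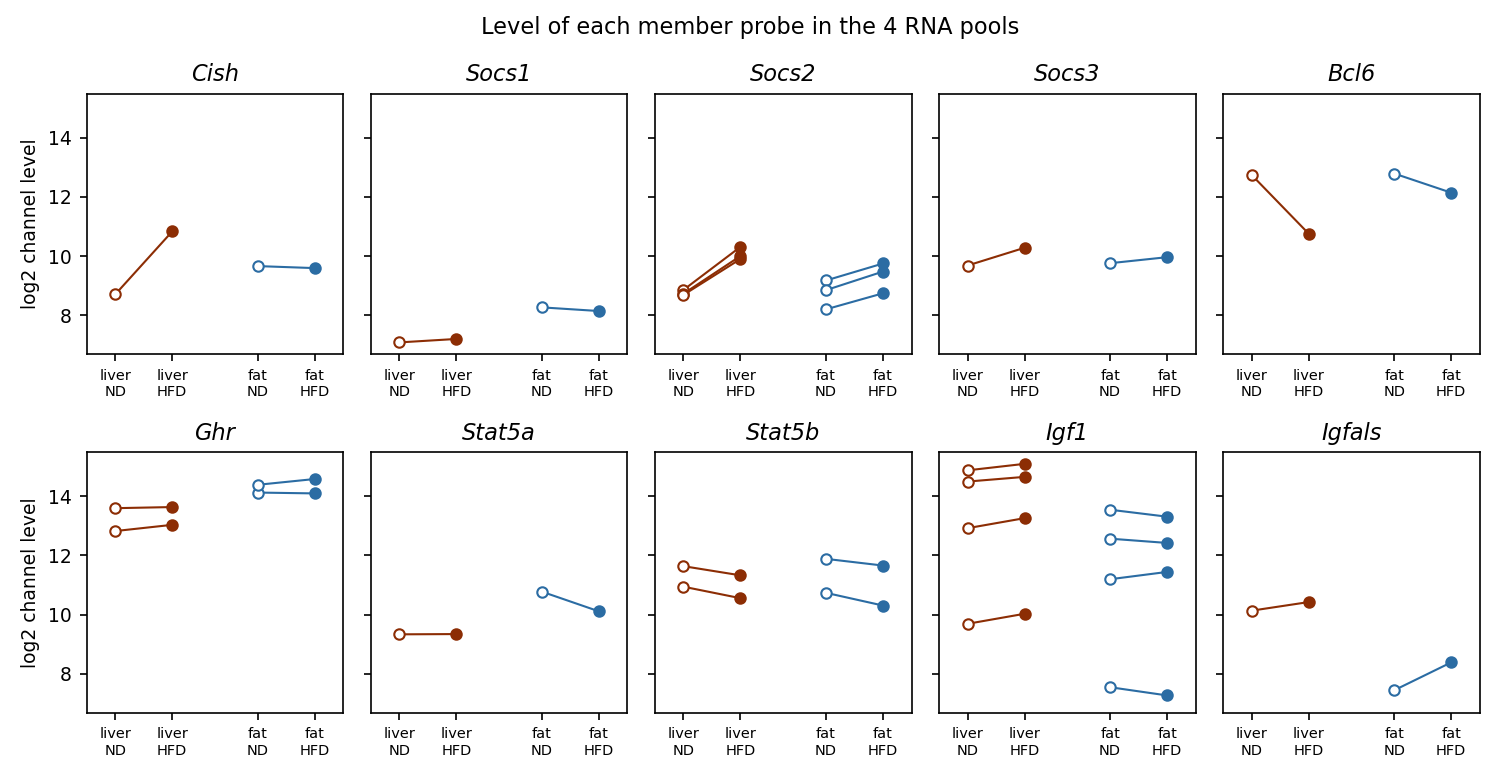
Log2 channel level of each probe in the 4 RNA pools, with the normal-diet (ND) pools as open and the high-fat (HFD) pools as filled circles, liver in brown and adipose tissue in blue. A line joins the pools of 1 probe on 1 array. The steep lines are Cish, Socs2 and Bcl6 in liver, while Ghr is brighter on the adipose array and Igf1 and Igfals on the liver array.

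The order of the 4 pools differed between the genes. Within an array, by the mean over probes, the diet pools of Ghr, Socs1, Igf1 and Stat5b lay within 2 software errors of each other in both tissues. So did the adipose pools of Cish and Socs3 and the liver pools of Stat5a and Igfals. By single probes, the adipose Stat5b probe at -0.43 was just past 2 times its error of 0.21. Between arrays no spread was measured, so the order of pools of different tissues is given without one. Within an array the SD of a level over the 10 Socs2 spots was 0.18 to 0.29. Levels between tissues also assume the same distribution of brightness on both arrays.

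**Figure D4:**
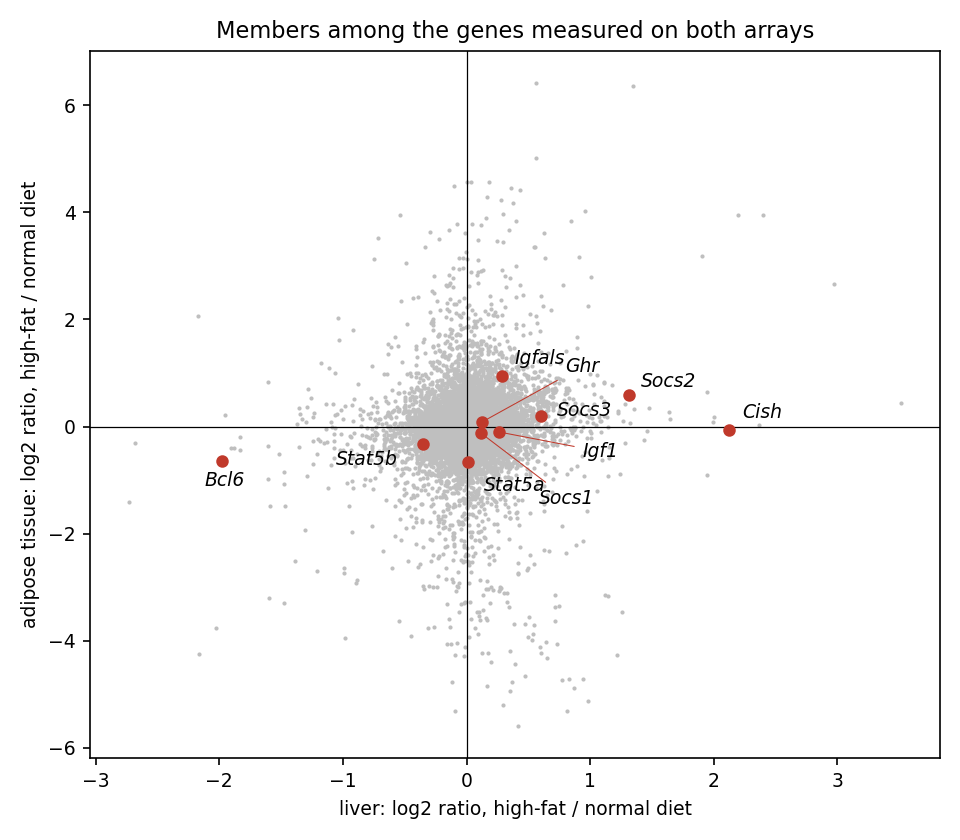
Log2 ratio of HFD over ND in adipose tissue against that in liver for the 12689 genes measured on both arrays (grey), with the 10 genes of growth hormone and STAT5 signalling in red. Cish lies far to the right near an adipose ratio of 0, Bcl6 far to the left and below 0, and Igfals above the liver axis.

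By distance in the plane of the liver and adipose ratios, over 2 tissues and 12689 genes, the nearest genes to Cish were Fam171b (liver 1.99, adipose 0.09), Cdh16 (2.37 and 0.03) and Akr1c18 (2.00 and 0.18), at distances of 0.20, 0.26 and 0.28. Nearest to Socs2 were Car3 (1.28 and 0.43), Smtnl2 (1.11 and 0.48) and Idi1 (1.09 and 0.55). Nearest to Bcl6 were Gm10639 (-1.90 and -0.41), Cyp39a1 (-1.83 and -0.44) and Gsta2 (-1.88 and -0.40).

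Most other genes of the pathway lay within 2-fold on both arrays, and so did most of all measured genes. Of all genes in liver 0.491% were at least 2-fold higher and 0.579% lower, and in adipose tissue 4.23% and 5.13%. Of 27 other receptors, kinases and adaptors measured in liver, none was past 2-fold (median 0.09). The largest ratio was that of the prolactin receptor gene Prlr, a close relative of Ghr, at 0.55 with an error of 0.21. Jak2, the kinase bound to the growth hormone receptor, was at 0.11 in liver and 0.37 in adipose tissue. In adipose tissue 1 of 28 was at least 2-fold higher, the interferon gamma receptor chain Ifngr2 (1.39), and the leptin receptor gene Lepr was at -0.86. None of the 5 other STAT genes and none of 13 other negative regulators passed 2-fold on either array. Stat3, which carries interleukin-6 signals, was at -0.10 in liver and -0.23 in adipose tissue. Of 15 further genes with links to STAT5 none passed 2-fold in liver, with the cell cycle gene Ccnd1 at 0.82 and the liver factor Onecut1 at 0.73. In adipose tissue 1 of 14 did, Hnf4a (1.90), which is also on the hepatocyte list and is expressed in gut.

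The IGF binding proteins, which carry IGF1 in the blood and tissues, lay on both sides of 0 in liver. Of 12 genes of this list measured there, none was past 2-fold. Igfbp1, which hepatocytes make in fasting, was at -0.98 with an error of 0.23, and Igfbp4 at 0.96 with an error of 0.22. In adipose tissue 3 of 14 were at least 2-fold lower, against 5.13% of all genes: Igfbp1 (-3.94), Igfbp2 (-1.82) and Igfbp6 (-1.28). Igfbp1 and Igfbp2 are hepatocyte products, and the hepatocyte markers of this array had a median of -3.03. The part of liver RNA in these ratios was not tested.

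Growth hormone pulses set the sex bias of many liver genes through STAT5B, with BCL6 acting on an overlapping set. On the liver array 3 of 28 male-biased genes were at least 2-fold higher, among them the steroid enzyme gene Hsd3b5 (1.89) and Moxd1 (1.73), and 1 was lower, the fatty acid elongase gene Elovl3 (-1.39). The median was 0.33. Over the 30 hepatocyte markers of this array it was 0.28, with 3 at least 2-fold higher and 0 lower. Of all liver genes 0.491% were higher by that size and 0.579% lower. Urinary protein genes were within 2-fold, with Mup20 at 0.98. Of 16 female-biased genes measured, 3 were lower: Cyp3a16 (-2.17), Cyp3a41b (-2.04) and Cyp2b10 (-1.83), with a median of 0.10. Members of the Cyp3a and Mup families are nearly identical, and a probe for one may also detect others. In adipose tissue 11 of 17 male-biased and 4 of 14 female-biased genes were lower, against 5.13% of all genes. Most of the hepatocyte markers named above were lower on the same array. Their part was not tested.

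The ratios of the 10 genes depended on the centring of both arrays and, in liver, on the treatment of local backgrounds as given above. With median centring, the median of all genes lay at 0.32 in liver and 0.69 in adipose tissue. All 10 genes were then above 0 in adipose tissue, so the direction of Cish, Socs1, Bcl6, Igf1, Stat5a and Stat5b turned there, and that of Stat5b in liver. Relative to that median, 8 of the 10 kept their direction in adipose tissue (not Cish and Igf1) and 9 of 10 in liver (not Socs1). Socs3 then reached 2-fold in liver (1.00), or 0.69 relative to the median. Bcl6 was at -1.82 in liver and -0.28 in adipose tissue relative to the median.

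**Figure D5:**
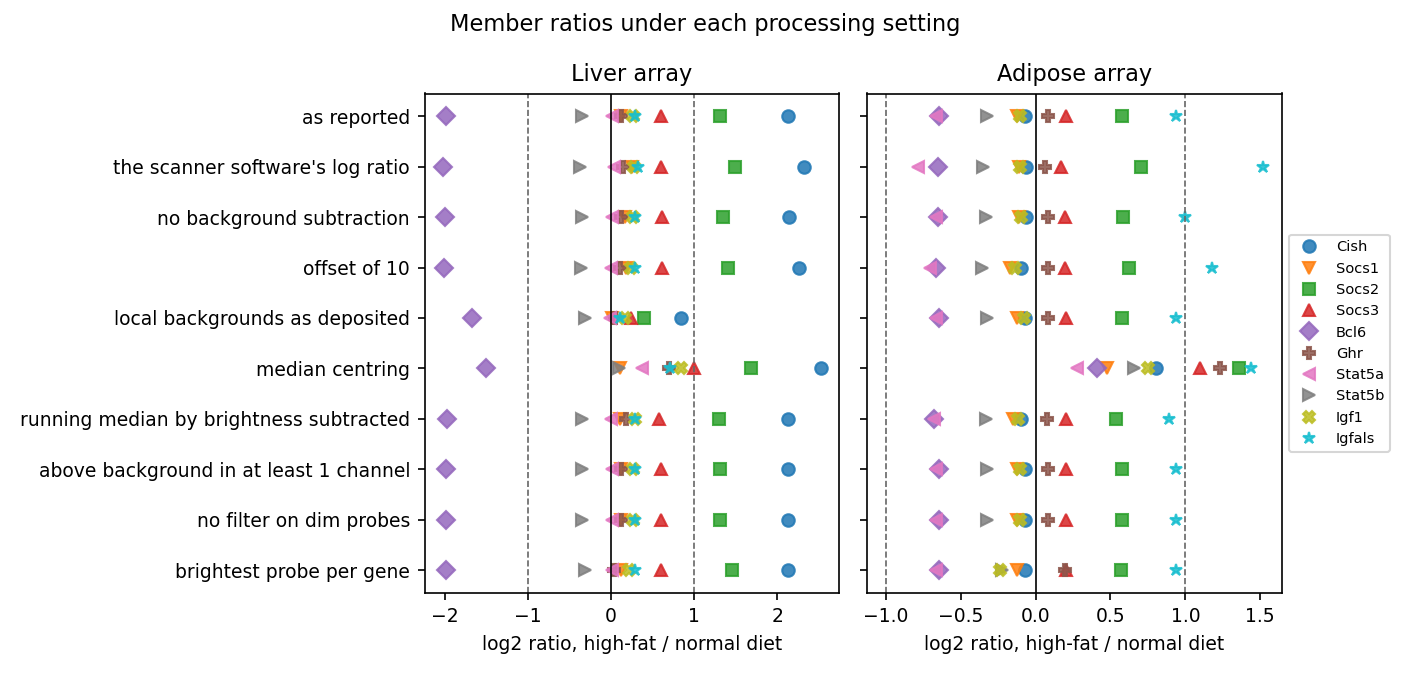
Log2 ratio of each of the 10 genes (symbols) under the reported processing and 9 alternatives, for the liver array (left) and the adipose array (right), with dashed lines at 2-fold. Cish and Bcl6 are the outermost symbols in liver under each setting, local backgrounds as deposited draw the liver ratios toward 0, and median centring moves the adipose ratios above 0.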

How the data were processed

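2-colour Agilent arrays of liver and adipose tissue were analysed, 1 per tissue. The scanner software was Agilent Feature Extraction, in version 11.5.1.1 with protocol GE2_1105_Oct12 per the file headers and in version 8.5.1.1 per the submitters' processing notes. The deposited files give median intensity of each spot and its local background without normalization. The deposited log ratio and its error are on the log10 scale, after the software's background subtraction and dye normalization, and were multiplied into log2. The software's flags, 0 or 1, marked dim spots and outliers.

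Outlying local backgrounds were set to their array's median in that channel. Background was corrected in limma 3.58.1 under R 4.3.3 (normexp, offset 50), and loess was fitted within each array with control spots at weight 0. Both steps were tested on simulated data without outlying local backgrounds, so the replacement of such backgrounds was not tested. Levels of a channel are after Aquantile. Flagged spots were left out, and spots of a probe and probes of a gene were averaged, over probes well above background in both channels. Of 39418 liver probes, 27503 matched 1 RefSeq gene by accession. A fixed size of 2-fold called a gene, and no test was possible with 1 array per tissue. Named were the 10 genes, the 3 largest ratios of each pathway list, and the 3 nearest genes of each gene past 2-fold; Jak2, Stat3 and Mup20 were added after their values were seen. The genes and lists were chosen with earlier results of these data known. The array annotation is of mm9, so only reference windows carry coordinates. A gene that the naming rule takes is not reported here.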

Additional observations from a re-analysis of the deposited data

How the results depend on the processing

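Each count and each ratio of the 10 genes was recomputed under 10 alternatives. Of 188 ratios, 164 moved by less than the software error and 24 by more, 19 of these with median centring and 4 with local backgrounds as deposited. Many of the 164 could not move. Every probe of the 10 genes passed the filter on dim probes, so either looser filter (20 ratios each) left the ratios unchanged. The rule on the software error (8 ratios) drops ratios without changing them, and the brightest probe cannot change a gene with 1 probe. No ratio past 2-fold changed its direction. Of the 10 genes, 0 in place of 2 were at least 2-fold higher in liver with local backgrounds as deposited, and 3 with median centring. In adipose tissue 1 in place of 0 was at least 2-fold higher with an offset of 10 or the software's log ratio, and 4 with median centring. Over all genes, 67 were higher in liver as reported, 138 with the software's log ratio, 20 with local backgrounds as deposited, 445 with median centring, 116 when 1 channel above background was enough and 103 when dim probes were kept. The 79 lower genes became 157, 35 and 28 under the first 3 of these. In adipose tissue the 605 higher genes became 4208 with median centring, and the 735 lower genes 1230 with the software's log ratio. The share of higher genes among those past 2-fold was 45.9% in liver and 45.1% in adipose tissue, against 94.1% and 87.2% with median centring. The cause of these changes was not tested. No paired analysis was possible because each group has 1 sample, and no replicate could be left out. Signal near background limits Socs1 in liver and Igfals in adipose tissue.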
